A study of Mus musculus with 96 samples.

Results

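The genes described here are 37 genes of hepatic stellate cells and of the extracellular matrix, out of 38924 genes measured in mouse liver. With earlier results of these data known, they were chosen by name from what they are known to encode and not by a measured value. They fell into 7 roles: 13 markers of stellate cells and pericytes, 4 fibrillar collagens, 4 chains of collagens VI and XIV, 4 genes of the basement membrane, 5 glycoproteins and proteoglycans, 5 matrix enzymes and their inhibitors, and 2 contractile genes. Of the 37, 35 had enough counts to be tested.

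Hepatic stellate cells lie between hepatocytes and the sinusoidal endothelium, store vitamin A as retinyl esters, and in the healthy liver act as the pericytes of the sinusoid. When the liver is injured they can become myofibroblasts, which express smooth muscle actin and lay down fibrillar collagen. The resting matrix is thin: fibronectin, made largely by hepatocytes, together with network-forming collagen and laminin along the sinusoids and small proteoglycans that bind collagen.

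The livers of 48 F1 mice, all males, were profiled by RNA-seq. Their parents were inbred NOD/ShiLtJ and PWK/PhJ mice mated in both directions, written NODxPWK and PWKxNOD. Each mouse ate a diet with either 0.009 g/kg of cholecalciferol, which is vitamin D3 (normal), or 0.050 g/kg (high), with the other ingredients matched. The 8 groups of 6 mice combined the 2 crosses, the 2 diets and 2 ages. The ages are called younger and older here because the age entries in the labels (8, 24 and 25) and the growth protocol (15 and 24 weeks) differ. All groups shared the autosomal F1 genotype, but the single X chromosome of these males came from a different strain in each cross. The labels name no engineered allele and no liver injury. The 7 mice whose age entry reads 25 were all older and on the normal diet (5 of NODxPWK, 2 of PWKxNOD), so that entry cannot be told apart from cross and diet within the older mice.

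Whole liver was sequenced, so fewer stellate cells and less RNA per cell cannot be told apart in any value below. Summed counts ran from 2025857 to 7480778 per mouse (median 5273518). The 6 mice of the shallowest barcode had at most 3090625 counts. In 8 mice, transcripts of 15 exocrine pancreas genes summed to 110 to 2235 CPM (counts scaled to a common library size, per the TMM method) against a median of 34.2 CPM over all mice. Markers fixed for endothelium, Kupffer cells and hepatocytes (Stab2, Clec4f, Alb and others) were detected in every mouse. The T cell marker Cd3e and the adipocyte marker Adipoq were at 0 in 27 and 34 of the 48 mice.

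Among the stellate and pericyte markers, levels are given first as mean CPM per kilobase of exon. Length was that of all annotated exons of a gene joined, which can exceed that of the transcript made. The order of genes on this scale is therefore approximate. Ecm1, a secreted matrix glycoprotein, was the highest at 16.8 CPM per kb. It was followed by the collectin Colec11 (9.18), the G-protein regulator Rgs5 (6.61), the small proteoglycan Dcn or decorin (5.93) and reelin, Reln (2.60). Lrat, the enzyme that esterifies retinol for storage, stood at 1.83, Cygb, the globin of stellate cells, at 1.16, and the PDGF receptors Pdgfrb and Pdgfra at 1.12 and 0.305. The nerve growth factor receptor Ngfr was at 0.922, the intermediate filament desmin (Des) at 0.563, the transcription factor Hand2 at 0.441 and the hedgehog-binding protein Hhip, the lowest member of all, at 0.150. All 13 markers passed the filter on low counts, and Hand2 was at 0 in 2 mice.

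The matrix genes spanned a wider range. Fibronectin, Fn1 (chr1:71585520-71653200, GRCm38), had the highest level of any member at 201 CPM per kb, or 2351 CPM. Sparc, which binds collagen and calcium, was next among the glycoproteins and proteoglycans at 14.9 CPM per kb, then biglycan, Bgn, at 7.80, lumican, Lum, at 0.942 and fibrillin, Fbn1, at 0.377. The collagen IV chains Col4a2 and Col4a1 stood at 5.71 and 5.08, and the laminin chains Lamc1 and Lamb1 at 2.36 and 0.481. The fibril-associated collagen XIV, Col14a1, was at 3.74, above the collagen VI chains Col6a1, Col6a2 and Col6a3 (0.841, 0.546 and 0.343). Fibrillar collagens were low: Col3a1 at 1.69, Col5a1 at 0.637, Col1a1 at 0.514 and Col1a2 at 0.394. Without division by length Col1a2 was above Col1a1, at 4.89 against 3.37 CPM. The metalloproteinase inhibitors Timp2 and Timp3 were at 2.43 and 2.08, the gelatinase Mmp2 at 0.353, and the contractile genes Tagln and Acta2, the latter smooth muscle actin, at 2.55 and 1.86. Loxl1, a collagen crosslinking enzyme, and Timp1, an inhibitor known to rise in fibrosis, did not pass the filter: they had a mean of 4.21 and 1.02 counts per mouse, and Timp1 was at 0 in 24 of 48 mice.

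Between mice, Bgn and Ecm1 followed the mean of the other stellate markers most closely of all members (r = 0.963 and 0.960, described below). Acta2, the classical gene of the activated cell, is the contractile gene whose start region could be matched. The start regions of these 3 members are shown. Each is the 250 bases 5′ of the annotated start, on the strand of the gene, from RefSeq on GRCm38.p6: Bgn at chrX:73483351-73483600 (plus strand), Ecm1 at chr3:95739570-95739819 (minus) and Acta2 at chr19:34255374-34255623 (minus). Capitals mark matches to TATAAA or GGGCGG on either strand.
Bgn: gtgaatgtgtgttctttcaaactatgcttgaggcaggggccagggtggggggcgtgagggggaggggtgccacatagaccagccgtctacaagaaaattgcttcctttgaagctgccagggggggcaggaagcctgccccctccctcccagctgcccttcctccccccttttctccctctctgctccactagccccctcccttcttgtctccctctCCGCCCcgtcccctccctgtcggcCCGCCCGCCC
Ecm1: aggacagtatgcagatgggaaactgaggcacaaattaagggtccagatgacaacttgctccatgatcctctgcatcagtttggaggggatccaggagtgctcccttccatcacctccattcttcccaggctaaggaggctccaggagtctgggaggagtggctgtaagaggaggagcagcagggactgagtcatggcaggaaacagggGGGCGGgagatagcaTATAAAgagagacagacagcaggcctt
Acta2: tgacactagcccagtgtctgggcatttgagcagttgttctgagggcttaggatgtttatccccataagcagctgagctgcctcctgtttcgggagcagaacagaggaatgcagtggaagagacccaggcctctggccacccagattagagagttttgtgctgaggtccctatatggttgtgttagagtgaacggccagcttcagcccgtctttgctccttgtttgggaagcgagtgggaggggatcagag
The Bgn window held 3 GGGCGG matches, of which the last 2 overlap, all read on the opposite strand. The Ecm1 window held TATAAA from 27 to 22 bases and GGGCGG from 42 to 37 bases before the start, and the Acta2 window held neither. Start regions of 26 of the 37 members could be matched by symbol. GGGCGG, searched on both strands, was found in 17 of the 26 (65.4%) against 32.9% of 27025 windows of all genes, CCAAT in 9 of 26 (34.6%) against 34.5%, and TATAAA in 2 of 26 (7.69%, Ecm1 and Col3a1) against 12.97%. These are letter matches only.

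Mice of the same group differed widely in their stellate cell transcripts and little in fibronectin. Over all 48 mice Ecm1 ran from 9.21 CPM (median 31.9) to 101 CPM, an 11.02-fold range, and Dcn from 10.7 (median 27.7) to 86.5 CPM, an 8.08-fold range. Fn1 ran from 1909 (median 2368) to 2645 CPM, a 1.39-fold range. High and low mice of Ecm1, Dcn and Col14a1 occurred in every group, as the plot of levels by group shows. The within-group SD on the log2 scale had a median of 0.51 over the 35 members and 0.26 over all 11979 genes tested, and it was 0.69 over the 13 stellate and pericyte markers. Its highest values were those of Ngfr (1.095), Ecm1 (0.95), Lamb1 (0.87), Dcn (0.87) and Colec11 (0.85), and its lowest those of Fn1 (0.10), Timp3 (0.23), Sparc (0.24) and Col4a1 (0.25).

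**Figure D1:**
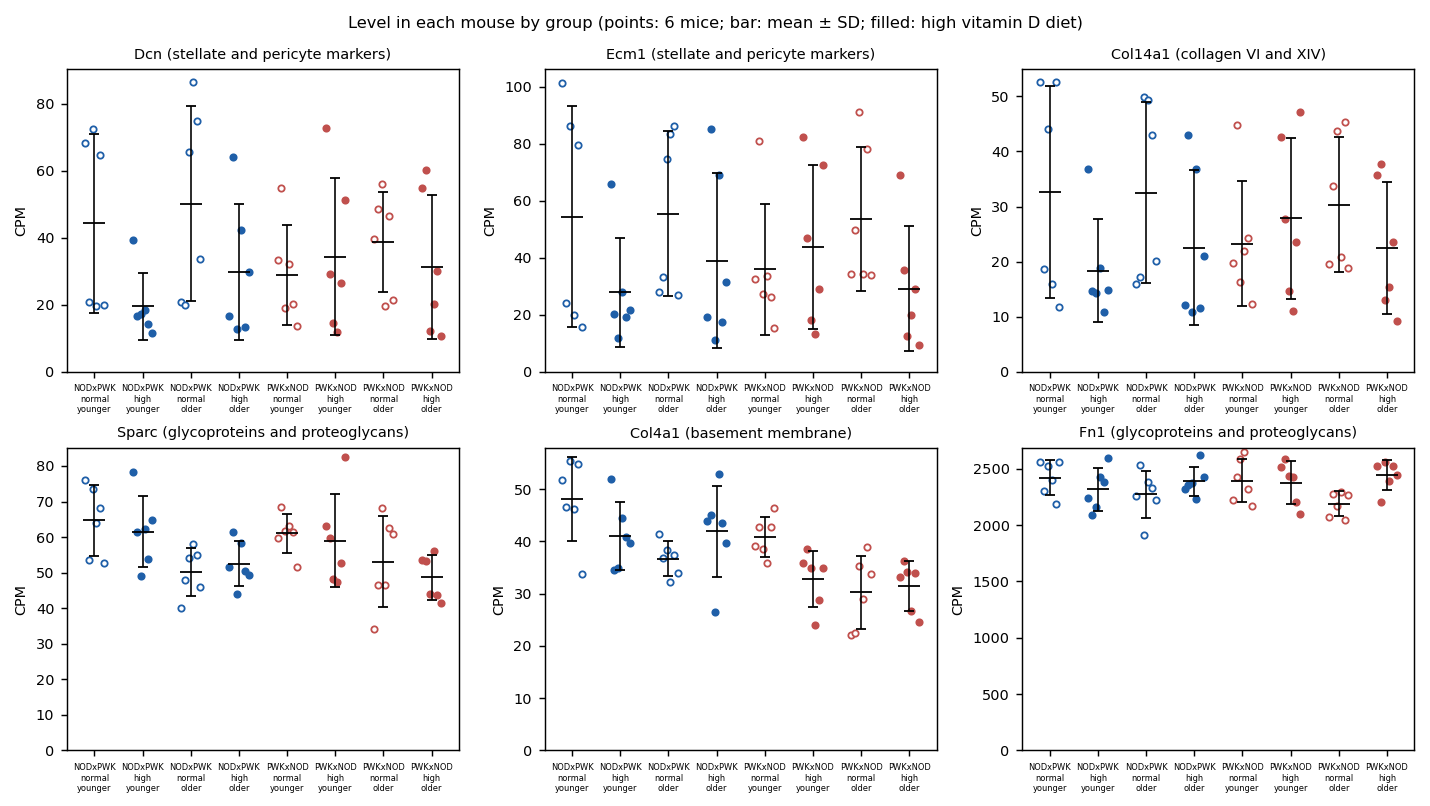
CPM of 6 members in each of the 48 mice, by group of 6 (points, mice; horizontal line and bars, mean ± SD; blue, NODxPWK; red, PWKxNOD; filled, high vitamin D diet). Dcn, Ecm1 and Col14a1 spread several-fold within groups, whereas Fn1 stays between 1909 and 2645 CPM.

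Counting noise is larger in low genes, so each gene was also set against the trend of edgeR's biological coefficient of variation (BCV) at its abundance. The BCV was more than 2 times the trend in 11 of 35 members (31.4%), against 553 of 11979 genes (4.62%). Of the 11, 8 were stellate and pericyte markers (8 of 13), with Ecm1 at 4.27, Dcn at 3.89 and Colec11 at 3.60 times the trend. The other 3 were Col14a1 (3.44), Bgn (2.76) and Lamb1 (2.66). None of the 4 fibrillar collagens and neither contractile gene passed 2 times the trend, and Fn1 (0.544) and Timp2 (0.595) lay below it.

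The members that varied most varied together. For every pair of the 35 members, Pearson's r was taken over the 48 deviations from the group means, so that differences between groups do not enter. These values are descriptions, each library gives 1 point to all of them, and log2 of the summed counts had r = -0.070 with the mean z-score of the 35 members, called the member score below. The mean r over 595 pairs was 0.418 against 0.00073 over all pairs of genes tested. In 113 pairs r was above 0.7, and in 61 it was below 0.

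A block of 15 members had r above 0.7 with at least 10 others: 10 stellate and pericyte markers (Dcn, Ngfr, Pdgfrb, Pdgfra, Rgs5, Lrat, Ecm1, Colec11, Reln and Hhip) with Col1a2, Col5a1, Col14a1, Lamb1 and Bgn. The closest pairs were Ecm1 with Bgn (r = 0.965), Ecm1 with Col14a1 (0.962) and Colec11 with Col14a1 (0.956). Within the stellate and pericyte markers the median r was 0.735, and between them and the fibrillar collagens it was 0.621. It was 0.147 between those markers and the contractile genes. With the mean of the other stellate markers, Acta2 had r = 0.08 and Tagln 0.38.

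Mean counts alone did not order these values. Acta2 and Tagln, with a mean of 21.5 and 26.6 counts per mouse, lay outside the block, whereas Pdgfra and Ngfr, with 15.8 and 16.6 counts, lay inside it at r = 0.83 and 0.89 with the other stellate markers. Des, a marker by name, was at r = 0.35 with a mean of 11.02 counts. Col4a1 and Col4a2, which form 1 trimer, were each other's closest partner at r = 0.716. Col1a1 and Col1a2, which also share a trimer, had r = 0.347 and the contractile genes Acta2 and Tagln 0.244, and none of these 4 had its closest partner in the other gene of its pair. Dcn and Lum, which lie 46985 bases apart on chromosome 10, had r = 0.708. Fn1 ran apart from the stellate cell genes, at r = -0.19 with the stellate markers and 0.56 with 11 hepatocyte genes, and its lowest value was with Lrat (-0.39). Timp3 had r = -0.09 with the stellate markers.

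**Figure D2:**
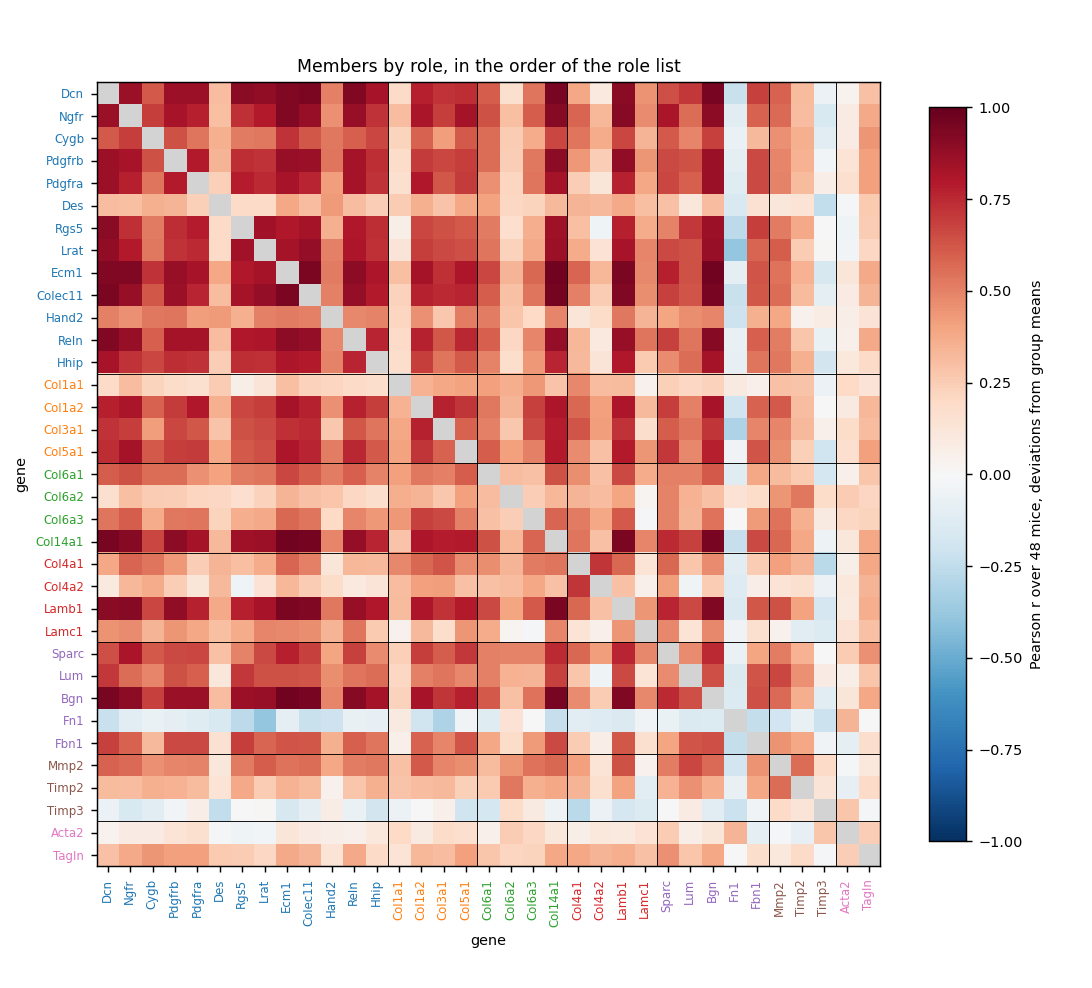
Pearson r between 35 members over the 48 deviations of mice from their group means, with genes on both axes ordered and coloured by role. The dark red block holds most stellate and pericyte markers with Col14a1, Lamb1 and Bgn (Ecm1 with Bgn, r = 0.965), and the pale bands are Fn1, Timp3 and Acta2.

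The member score ran opposite to haemoglobin transcripts. Haemoglobin in a liver sample comes mostly from red cells, and the 4 haemoglobin genes summed to between 25.5 and 754 CPM (median 253) per mouse. The member score and the haemoglobin score had Pearson's r = -0.857 and Spearman's rho = -0.863 over the 48 deviations. Without the 2 mice farthest from the median of the haemoglobin score r was -0.834, in NODxPWK it was -0.897 and in PWKxNOD -0.798. In the 6 lane sets, each of 8 mice sequenced in the same lanes with 1 mouse of each group, it ran from -0.974 to -0.726. The score had a gap between 0.22 and 0.58 with 15 mice above it, 1 to 3 in each group, and 33 below. Within the upper mice r was -0.307 and within the lower -0.692. The gap was searched for in this score, which is centred on each group mean, so mice above it in every group are close to given. Each part spans less of the score, which by itself weakens r, so these 2 values cannot be set against that over all mice.

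Single members followed the same order: r with haemoglobin was below 0 in 33 and below -0.5 in 23 of the 35, with Dcn at -0.90, Colec11 and Lamb1 at -0.87 and Pdgfrb at -0.84. It was near 0 for Timp3 (0.03), Col4a2 (-0.05) and Fn1 (0.11). Scores of other cells had weaker relations with the member score: r was -0.491 for 15 endothelial genes, -0.390 for 11 Kupffer cell genes, -0.286 for 11 hepatocyte genes and 0.053 for 4 genes of portal fibroblasts. Only 2 smooth muscle genes and 1 mesothelial gene could be used, at 0.409 and 0.432. Per mouse the 15 endothelial genes summed to 593 to 867 CPM and the 12 Kupffer cell genes to 141 to 278 CPM, narrower ranges than that of haemoglobin. The part of red cell RNA in the spread of the members was not tested.

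**Figure D3:**
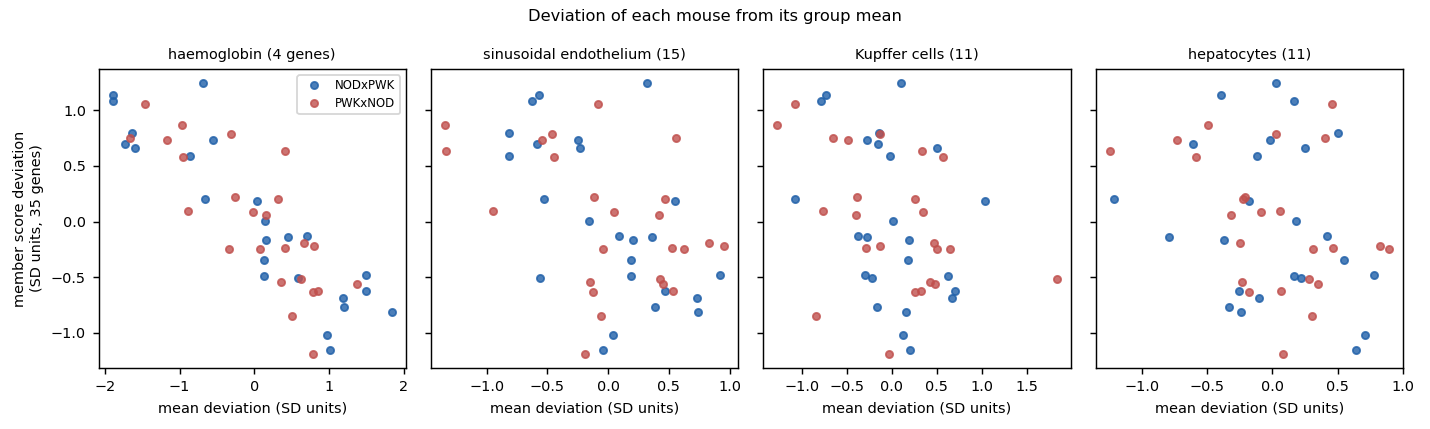
Mean deviation of each of the 48 mice from its group mean, in SD units, for the 35 members (vertical) against haemoglobin, endothelial, Kupffer cell and hepatocyte genes (horizontal, number of genes in brackets; blue, NODxPWK; red, PWKxNOD). The points fall steeply in the haemoglobin panel (r = -0.857) and loosely in the other 3 (-0.491, -0.390 and -0.286).

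Sparc and Col4a1 were lower in older than in younger livers. Sparc (chr11:55394500-55423183) ran from 47.2 (median 61.6) to 82.6 CPM in the 24 younger mice and from 34.2 (median 50.9) to 68.1 CPM in the 24 older mice. The median was lower in the older mice and the ranges overlapped. Sparc fell by 0.26 ± 0.06 on the log2 scale (SE, 24 against 24 mice, edgeR's quasi-likelihood test with Benjamini-Hochberg adjustment over 11979 genes, adjusted p = 0.00444). Col4a1 (chr8:11198423-11312826) ran from 24.0 (median 39.4) to 55.3 CPM in younger and from 22.1 (median 34.7) to 52.8 CPM in older mice. It fell by 0.22 ± 0.07 (adjusted p = 0.0267), again with overlapping ranges.

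These were 2 of 35 members, against 12% of all genes called in this comparison and 5.59% called lower. At an unadjusted p under 0.05 there were 4, the others being Col1a2 (-0.31 ± 0.15) and Acta2 (-0.24 ± 0.12). The 4 fibrillar collagens all had estimates below zero (median -0.25) without passing the test, and 9 of the 13 stellate and pericyte markers had estimates above zero (median 0.08), none passing. The median log2 difference over the 35 members was -0.03, with 13 above zero, against -0.00355 over all genes tested with 5857 of 11979 above zero. Without the 7 mice whose age entry reads 25, Sparc was at -0.20 (adjusted p = 0.161) and Col4a1 at -0.16 (0.342), so neither passed. Without the mice of lane set 1, Sparc was at -0.20 (adjusted p = 0.0534) and Col4a1 at -0.19 (0.107), and Col4a1 did not pass without those of sets 2, 3 or 6 either. With the haemoglobin score as a covariate 1 more member was called, Dcn at 0.35 ± 0.11 (adjusted p = 0.0286), against 0.27 ± 0.25 without it. The 12% and 5.59% belong to the fit without that covariate, and the share of all genes called with it is not given here.

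The genes called with age in the other lists are to be read against the 12% of all genes called in either direction. Of 18 tested genes of collagen processing and turnover, 2 fell and 1 rose: the collagen chaperone Serpinh1 (-0.52 ± 0.16, adjusted p = 0.0250) and the prolyl 3-hydroxylase P3h1 (-0.28 ± 0.07, 0.00732) were lower, and P4hb, the shared subunit of the prolyl 4-hydroxylases, was higher (0.17 ± 0.03, 0.000192). Of 30 other matrix genes, Vtn or vitronectin (0.18 ± 0.04) and Col5a3 (0.47 ± 0.13) rose and none fell. Among 20 genes of TGF-beta and PDGF signalling, 1 fell, the inhibitor Smad6 (-0.44 ± 0.13), and of 7 retinoid genes Dhrs3, a retinal reductase, rose (0.17 ± 0.05). Markers of other cells moved beside these. Of 15 endothelial genes Pecam1 (-0.16), Lyve1 (-0.27) and Ptprb (-0.15) fell and Clec4g (0.12) rose, while the 15 summed to 630 to 855 CPM in younger and 593 to 867 CPM in older mice. Sparc and collagen IV are also made by endothelial cells, and the part of that cell type in their difference was not tested.

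Both collagen IV chains were lower in PWKxNOD than in NODxPWK livers. Col4a1 ran from 26.6 (median 41.1) to 55.3 CPM in the 24 NODxPWK mice and from 22.1 (median 34.9) to 46.5 CPM in the 24 PWKxNOD mice, a difference of -0.31 ± 0.07 (edgeR's quasi-likelihood test, adjusted p = 0.00115). Col4a2 (chr8:11312805-11449287) ran from 29.8 (median 41.2) to 59.0 CPM and from 21.3 (median 33.1) to 42.7 CPM, a difference of -0.28 ± 0.07 (adjusted p = 0.00606). The group means were lower in PWKxNOD at each age and diet. For Col4a1 they were 48.1 ± 8.05 against 40.9 ± 3.79 CPM (SD, n = 6) in younger mice on the normal diet and 41.9 ± 8.66 against 31.5 ± 4.72 CPM in older mice on the high diet. The genes lie head to head and their annotated spans overlap over 22 bases, chr8:11312805-11312826. The libraries were not stranded, so reads from that overlap cannot be told apart.

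The 2 called members compare with 10.7% of all genes called and 5.33% called lower. At an unadjusted p under 0.05 there were 7, which also took in Acta2 (-0.32 ± 0.12, adjusted p = 0.0679), Lamc1 (-0.20 ± 0.08, 0.0998), Col5a1 (-0.41), Timp2 (-0.16) and Timp3 (0.15). The median over the 35 members was -0.07, with 11 above zero, and the 13 stellate and pericyte markers had none called (median -0.08). Col4a1 passed under each of the 16 other settings tried (-0.34 to -0.25). Col4a2 did not pass without the mice of lane set 1 (-0.18, adjusted p = 0.130), without the 8 mice with pancreas transcripts (-0.20, 0.0705) or without the mice with age entry 25 (-0.25, 0.0819).

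The genes called lower in PWKxNOD in the lists of related genes are to be read against the 5.33% of all genes called lower. In lists this short a single called gene can exceed that share. Hspg2, which encodes perlecan, was the 1 called among 30 other matrix genes (-0.32 ± 0.10, adjusted p = 0.0222), and Mmp14, a membrane-bound metalloproteinase, the 1 among 18 processing and turnover genes (-0.37 ± 0.08, 0.000973). Among 20 TGF-beta and PDGF signalling genes 3 were lower, the ligand Pdgfc (-0.52 ± 0.16) and the TGF-beta feedback genes Smad7 (-0.42 ± 0.12) and Skil (-0.31 ± 0.08). Of 7 retinoid genes Dhrs3 was lower by the same test (-0.16 ± 0.05), and of 11 Kupffer cell genes Vsig4 was lower (-0.44 ± 0.10). All 15 endothelial genes had estimates below zero and 4 passed, Ehd3 (-0.17), Lyve1 (-0.25), Tek (-0.18) and Pecam1 (-0.13). Together they summed to 642 to 867 CPM in NODxPWK and 593 to 845 CPM in PWKxNOD. Of the 15 exocrine pancreas genes 8 were higher in PWKxNOD, against 642 of 11979 genes called higher. Their sum stood out in only 8 mice. It reached 2235 CPM in PWKxNOD and 305 CPM in NODxPWK, against a median of 34.2 CPM over all mice. The part of endothelial or pancreatic RNA in the collagen IV difference was not tested, and without the 8 mice with pancreas transcripts Col4a1 was at -0.27 (adjusted p = 0.0144).

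**Figure D4:**
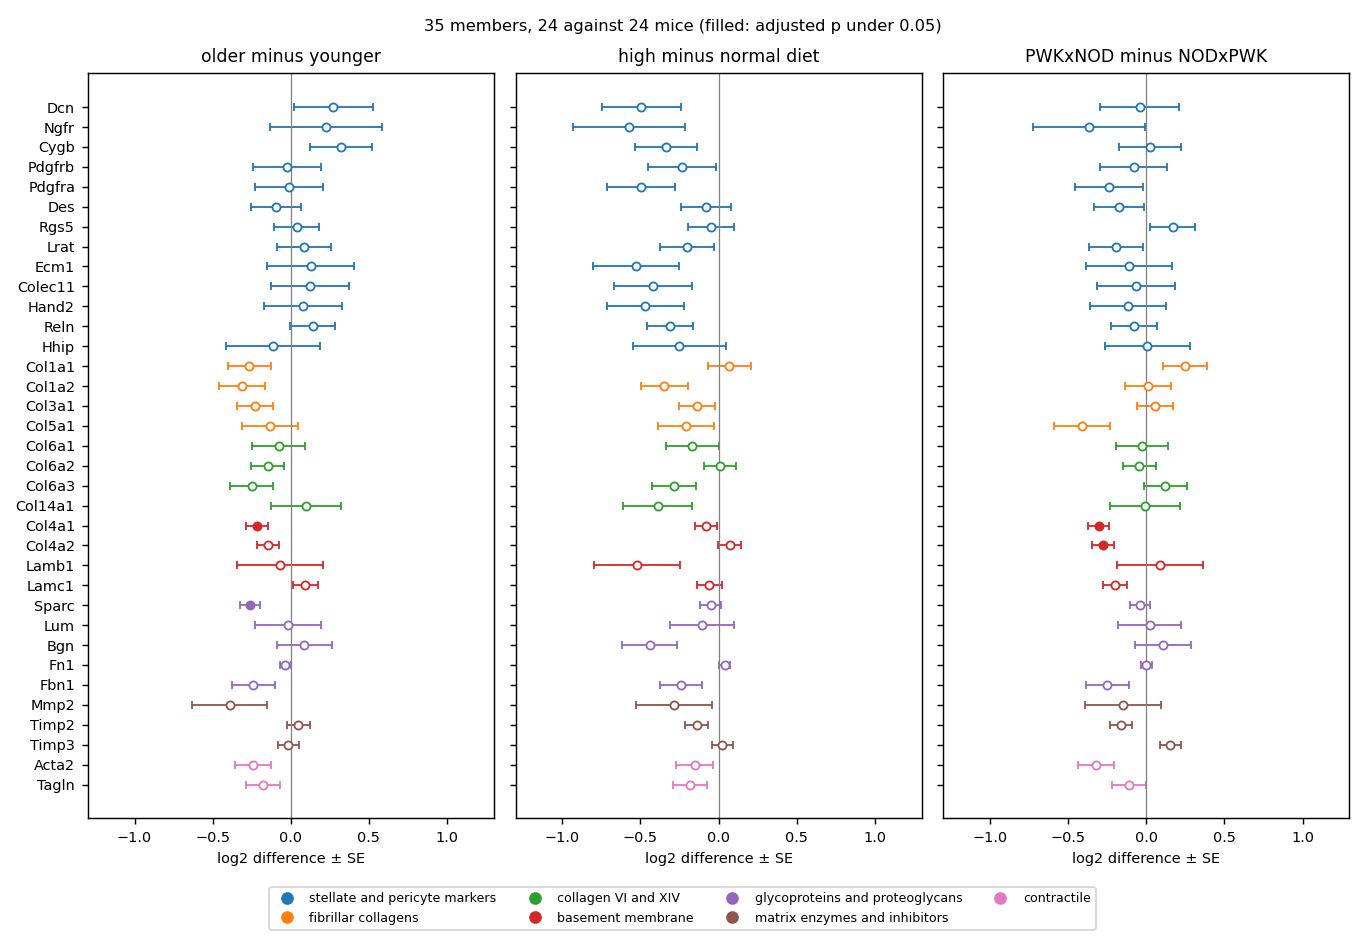
Log2 differences ± SE of the 35 tested members for age, diet and cross, 24 against 24 mice each, coloured by role (filled, adjusted p under 0.05). Filled points are Col4a1 and Sparc for age and Col4a1 and Col4a2 for cross, and most open points of the diet panel lie left of zero.

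No member was called between the diets. In edgeR's quasi-likelihood test 0 of 35 passed, against 0.342% of all genes, with 5 at an unadjusted p under 0.05, and DESeq2 called 0 with 6. The 5 were Bgn (-0.44 ± 0.18, adjusted p = 0.296), Pdgfra (-0.50 ± 0.22), Col1a2 (-0.35 ± 0.15), Reln (-0.31 ± 0.15) and Col6a3 (-0.28 ± 0.14). Estimates were below zero in 30 of 35 members and in 13 of 13 stellate and pericyte markers. Their medians were -0.21 and -0.34, against -0.00157 over all genes tested with 5916 of 11979 above zero. Because the members vary together between mice, these counts are not independent observations.

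Dcn shows the size of the spread behind them. It ran from 13.7 (median 33.6) to 86.5 CPM in the 24 mice on the normal diet and from 10.7 (median 19.3) to 72.9 CPM on the high diet. The median was lower on the high diet, the ranges overlapped almost fully, and the difference of -0.49 ± 0.25 did not pass (adjusted p = 0.480). Bgn ran from 25.9 (median 47.8) to 84.4 CPM on the normal and from 20.6 (median 35.3) to 79.9 CPM on the high diet. Ecm1 (-0.53 ± 0.28) and Colec11 (-0.42 ± 0.25) did not pass. For Fn1, which varied least, the diet difference was 0.04 ± 0.03, and for Sparc -0.05 ± 0.06. The 4 haemoglobin genes had estimates above zero (median 0.14) and none passed. With the haemoglobin score as a covariate the members' median was -0.13, and Bgn, the lowest p among them, was at -0.34 ± 0.09 (adjusted p = 0.0819).

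In older mice 0 of 35 members were called between diets (3.71% of all genes were), with 5 at an unadjusted p under 0.05, and DESeq2 called 0 with 6. The lowest p were those of Col4a2 (0.27 ± 0.10, adjusted p = 0.146), Fn1 (0.12 ± 0.05) and Hand2 (-0.80 ± 0.34), followed by Pdgfra (-0.70 ± 0.31) and Acta2 (-0.38 ± 0.17). In edgeR's quasi-likelihood test with the haemoglobin score as a covariate, 2 members were called lower on the high diet, Ecm1 (-0.75 ± 0.21, adjusted p = 0.0294) and Bgn (-0.45 ± 0.13, 0.0380). The 3.71% belongs to the fit without that covariate, and the share of all genes called with it is not given here. Ecm1 ran from 26.9 (median 42.04) to 91.1 CPM on the normal and from 9.21 (median 24.4) to 85.2 CPM on the high diet in these mice. Outside the members, the TGF-beta receptor Tgfbr2 rose on the high diet in older mice (0.29 ± 0.08, adjusted p = 0.0240) and P4ha1, a prolyl 4-hydroxylase subunit, fell (-0.72 ± 0.19, 0.0171). In younger mice 0 of 35 were called, as were 0% of all genes, with 2 members at an unadjusted p under 0.05, Col4a1 (-0.27 ± 0.10) and Timp2 (-0.24 ± 0.10), and DESeq2 called 0 with 2.

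No interaction was called for any member. For diet by age edgeR called 0 of 35 (0.618% of all genes) with 3 at an unadjusted p under 0.05 and DESeq2 0 with 3, the lowest p being that of Col4a1 (0.38 ± 0.14, adjusted p = 0.202). For age by cross both tools called 0 (0.0501% of all genes in edgeR) with 0 unadjusted. For diet by cross edgeR called 0 (0.125%) with 4 unadjusted and DESeq2 0 with 4, and 30 of 35 estimates were above zero with a median of 0.34. Dcn is an example. Its mean was 44.3 ± 26.8 CPM on the normal and 19.6 ± 10.03 CPM on the high diet in younger NODxPWK mice (SD, n = 6), and 28.9 ± 14.9 and 34.3 ± 23.5 CPM in younger PWKxNOD mice. In older mice the means were 50.2 ± 29.1 and 29.8 ± 20.4 CPM in NODxPWK, and 38.6 ± 15.0 and 31.4 ± 21.5 CPM in PWKxNOD. The diet by cross difference of Dcn was 0.92 ± 0.51 (adjusted p = 0.410), within the spread between mice.

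Each F1 mouse carries 1 NOD and 1 PWK copy of every autosomal gene, and the counts were deposited separately for the 2 alleles. Of the 35 autosomal members 24 had a mean count of at least 20 and were tested, and 12 of them differed between alleles, against 43.6% of 9362 genes. The NOD allele was higher in 10 (22.8% of all genes) and the PWK allele in 2 (20.9%). Fn1 was the most precise: PWK made up 40.6 (median 44.2) to 48.5% of its counts, below 50% in all 48 mice, with a mean of 44.3% ± 1.45 (SD, n = 48) and a log2 ratio of PWK to NOD of -0.33 ± 0.01 (edgeR, adjusted p = 2.2e-26). Dcn had 14.9 (median 37.5) to 54.2% PWK, below 50% in 47 of 48 mice, and a log2 ratio of -0.76 ± 0.06 (adjusted p = 5.2e-14). Sparc had 22.5 (median 39.5) to 62.1% PWK, below 50% in 45 mice (-0.58 ± 0.06, adjusted p = 7.03e-11). The 2 collagen IV chains leaned the same way, Col4a1 with a mean of 44.3% ± 6.73 (-0.33 ± 0.06, adjusted p = 3.73e-06) and Col4a2 with 42.03% ± 10.4 (-0.48 ± 0.09, 1.27e-05).

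The other members with more NOD than PWK were Rgs5 (-0.77 ± 0.07), Timp2 (-0.88 ± 0.12), Col14a1 (-0.59 ± 0.07), Lrat (-0.27 ± 0.08) and Lamb1 (-1.34 ± 0.33). Ecm1 leaned to PWK at 33.1 (median 55.2) to 83.4%, below 50% in 11 of 48 mice, with a log2 ratio of 0.34 ± 0.08 (adjusted p = 0.000279). Ecm1 and Dcn, whose totals varied together between mice (r = 0.929), thus leaned to opposite alleles. Col6a2 had the largest ratio, 1.60 ± 0.40 (adjusted p = 0.00079), but from a mean of 23.8 counts, and its share was under 1% or over 99% in 11 mice. Without the mice with age entry 25 it was at 0.54 and did not pass (adjusted p = 1), and Lrat was at -0.22 (0.0573). Fbn1 and Tagln also had such extreme shares, in 14 and 12 mice. Over the 24 members 18 log2 ratios were below zero (median -0.23), against 4988 of 9362 genes with a median of 0.00. The count over all genes takes in genes with equal allele counts, whose ratios differ from 0 only by rounding error. It is therefore not a share of genes leaning to NOD and cannot be set against the 18. The NOD allele took 52.6% of all counts (48.9 to 56.5% per mouse).

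**Figure D5:**
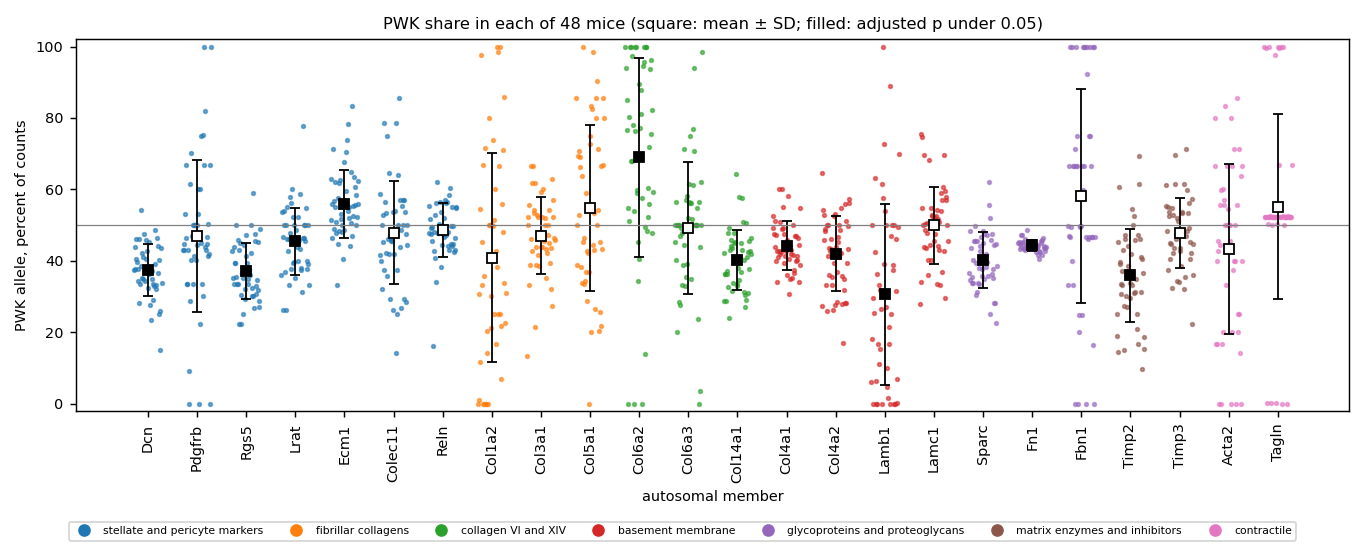
Share of the PWK allele in the counts of 24 autosomal members, in percent, 1 point per mouse, coloured by role (square and bars, mean ± SD over 48 mice; filled, adjusted p under 0.05). Fn1 is tightly held at 44.3%, Dcn, Rgs5, Timp2 and Sparc lie lower, Ecm1 lies above 50%, and low-count genes such as Col6a2, Lamb1 and Fbn1 scatter from 0 to 100%.

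The allele ratio of no member was called to depend on parental origin, age or diet. For the parent of origin, assuming that the first-named strain gave the mother, edgeR called 0 of 24 (0.267% of all genes) with 4 at an unadjusted p under 0.05 (Fn1, Dcn, Col4a1 and Ecm1), and limma on log2 ratios 0 with 5. For age the counts were 0 (0.705% of all genes) with 2, Ecm1 and Timp3, and limma 0 with 2. For diet they were 0 (0.0214%) with 1, Sparc (0.32 ± 0.12, adjusted p = 1), and limma 0 with 2. Bgn and Timp1 lie on the X chromosome, of which a male has 1, from his mother. The strain written second made up 1.06% of the Bgn counts in NODxPWK and 0.466% in PWKxNOD. For Timp1, with about 1 count per mouse, the median share was 50% in both crosses, and its alleles could not be told apart.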

How the data were processed

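RNA-seq had been done on poly(A) RNA from liver of 48 mice, each sequenced in 1 lane on each of 2 flowcells (68 bp single-end, not stranded, per the labels' protocols). The authors deposited 2 tables of expected counts per gene and mouse, 1 for each allele, made with EMASE per the file names quoted in the labels. The submitters' processing notes name CASAVA 1.7.0, Bowtie 1.1.2 and GRCm38 (mm10). The labels do not say how both runs of a mouse were combined. Gene symbols and coordinates came from GENCODE M21, which matched 37607 of the 38924 genes. The unmatched genes held 0.159% of the counts.

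The alleles' expected counts were summed and rounded. In edgeR 4.0.16 (R 4.3.3), genes were filtered with filterByExpr, scaled by TMM and fitted with 8 group means over 48 mice by the robust quasi-likelihood method, with Benjamini-Hochberg adjustment over 11979 genes and a threshold of 0.05. The common biological coefficient of variation was 16.6%. Levels are TMM-scaled CPM, and log2 values used CPM + 0.5. Alleles were compared in edgeR with mouse as a fixed effect, in autosomal genes averaging 20 or more counts per mouse. Of 9706 genes with that mean count, autosomal or not, 490 had equal allele counts in every mouse (within 0.001 counts). Where such a gene was tested, the allele model had nothing to separate. DESeq2 1.42.0 and limma 3.58.1 served as alternatives. Scores are means of z-scored log2 values.

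On simulated counts for the age comparison (11979 genes), 54, 82, 96 and 98% of genes changed 1.25-, 1.5-, 2- and 4-fold were recovered, with 11 false calls among 11779. The changed genes were drawn at random from all genes, of which 4.62% had a BCV over 2 times the trend, against 31.4% of the members. These percentages therefore do not measure recovery in members that vary widely, such as Ecm1 and Dcn. For the allele comparison (2000 genes), 98, 100, 100 and 100% were recovered, with 9 false calls among 1800. These allele counts were drawn at the same share of a gene in every mouse, without any spread of shares between mice. The allele percentages therefore do not measure recovery in the real data, where shares varied between mice. Mice of a group differed by more than sampling noise (chi-square per gene 4.30 to 51.8 over 120 pairs), and each was counted as 1 replicate. Mice of a lane set, which share a replicate number, did not deviate together: the mean correlation of their deviations was -0.0049, and 32 of 168 pairs were above 0.1.

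The members, gene lists and tests were chosen with earlier results of these data known. Every member is named with its level, members past the threshold are given with full tests, and up to 4 genes of each list and comparison are named by p-value. Start regions were read from RefSeq on GRCm38.p6.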

Additional observations from a re-analysis of the deposited data

Results flagged for a closer look

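The 12 members named with full tests, and the member score, were searched in each of the 8 groups for a mouse whose gap to the next, divided by the range of the group of 6, was above Dixon's 95% critical value. This was so in 10 of 104 such groups, always for the highest mouse, and chance alone gives about 1 in 20. The member score itself had none.

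In younger NODxPWK mice on the high diet 1 and the same mouse stood apart in 5 members: Ecm1 at 65.7 CPM against 11.9 to 27.9 CPM in the other 5 mice, Dcn at 39.4 against 11.5 to 18.3, Col14a1 at 36.8 against 10.7 to 18.9, Lamb1 at 7.54 against 1.26 to 2.92, and the basement membrane gene Col4a2 at 53.1 against 38.5 to 42.9 CPM. Its haemoglobin transcripts summed to 46.6 CPM, the lowest of its group (median 329.7 CPM). Timp2 in the same group was at 11.95 CPM in another mouse, against 6.62 to 8.42 CPM.

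In younger PWKxNOD mice on the normal diet 1 mouse stood apart in 3 members: Ecm1 at 80.9 CPM against 15.1 to 33.7 CPM, Col14a1 at 44.8 against 12.3 to 24.3, and Lamb1 at 9.87 against 3.09 to 4.81 CPM. In older NODxPWK mice on the normal diet Col4a2 was at 50.5 CPM in 1 mouse against at most 35.99 CPM in the others. Both high Col4a2 mice belonged to lane set 1, without which the cross difference of Col4a2 was -0.18 and did not pass (adjusted p = 0.130).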

How the results depend on the processing

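Results named as counts of members stayed within 1.5 times of their value, and the median SD and the relation to haemoglobin within their spread, in 184 repeats and moved in 10. Without the mice with age entry 25 the age count was 0 and the cross count 1. Leaving out 1 lane set at a time gave 0 to 2 members for age (0 without set 1, and 1 without set 2, 3 or 6) and 1 to 3 for cross (1 without set 1). Without the 8 mice with pancreas transcripts the cross count was 1. With the haemoglobin score as a covariate the diet count in older mice was 2. With log2(CPM + 2) the members' median SD was 0.378. Single genes kept their call in 309 repeats and lost it in 12, and none reversed: Col4a1 for age in 5, Sparc for age in 2, Col4a2 for cross in 3, and the allele ratios of Lrat and Col6a2 in 1 each. DESeq2, size factors by RLE, other filters and unrounded counts ended none of these calls in genes still tested. With a mean of at least 50 counts required, the allele ratios of Lrat, Lamb1 and Col6a2 were not tested, so those calls could not be repeated. Over all settings 9 to 12 members were called between alleles.

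Lane set shares its number across groups, and with lane set as a replicate block the counts were 2 for age, 2 for cross and 0 for each of the other 6 comparisons, as without the block. Sparc, the collagen IV chains and Fn1 rest on mean counts of 199 to 12314 per mouse. Members with few counts had little power: Hand2, Mmp2 and Hhip had 5.29 to 6.95, Loxl1 and Timp1 were not tested, and 11 autosomal members were too low for an allele test. The exclusion of mice with pancreas transcripts or of the shallowest barcode, and the haemoglobin range, were looked at after the data had been seen. Intervals and tests cover the spread between these mice.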

Other observations

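Outside the 37 genes, the 10 genes whose deviations followed the member score most closely were Gdf2 (r = 0.940), Ntn1, Sod3, Prelp, Plvap, Tgfbi, Angptl2, Abcc9, Lama1 and Pth1r (0.880), each r over 48 mice. Gdf2 encodes BMP9, Prelp a small leucine-rich matrix protein, Tgfbi a matrix protein induced by TGF-beta, Lama1 a laminin chain and Abcc9 a potassium channel subunit of pericytes, at mean levels of 7.46, 21.4, 19.1, 4.69 and 14.4 CPM. At the other end were the 4 haemoglobin genes, Hbb-bs (-0.864), Hbb-bt (-0.850), Hba-a1 (-0.844) and Hba-a2 (-0.844), then Ctsb (-0.630), Npc1, F11r, Tma7-ps, Rbp4 (-0.589) and Rdh5 (-0.558). Rbp4 encodes the plasma carrier of retinol and Rdh5 a retinol dehydrogenase. Of the 11944 genes outside the list, 54 had r above 0.7 and 4 had r below -0.7. These are descriptions chosen by their values and carry no test.

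Of 7 bile duct genes listed, 3 had enough counts to be tested and 2 were called with age, against 12% of all genes, while the duct markers Krt19, Krt7 and Epcam had medians of only 0.748, 0.462 and 0.586 CPM. Averaged over crosses and diets, Spp1, or osteopontin, rose by 0.72 ± 0.08 and Sox9 by 0.83 ± 0.14 in older livers (edgeR's quasi-likelihood test, adjusted p = 6.67e-10 and 2.92e-05). By the same test the rise of Spp1 differed between groups. It was larger in PWKxNOD (age by cross 0.82 ± 0.15, adjusted p = 0.0118) and on the high diet (diet by age 0.73 ± 0.15, 0.0164). Spp1 was also higher on the high diet in older mice (0.53 ± 0.10, adjusted p = 0.00186). Between the crosses Spp1 was higher (0.27 ± 0.08) and Sox9 lower (-0.77 ± 0.14) in PWKxNOD.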
